A study of Mus musculus with 16 samples.

Results

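Regulatory T cells (Treg) sorted directly from mouse lymph nodes were compared between 2 subsets that both carried the costimulatory receptor ICOS and differed in the integrin chain CD103. The double-positive subset (CD103pos ICOSpos, 2 arrays) was set against the ICOS single-positive subset (CD103neg ICOSpos, 2 arrays). These 4 arrays of the 16 in the series were taken by their titles, with no measured value used. The question the sort poses is what CD103 marks among Treg that already carry ICOS.

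All Treg came from wild type female C57BL/6 mice of 8 to 12 weeks, from lymph nodes pooled over the neck, the limbs, the mesentery and the aorta, and 270 ng of RNA per sample went onto a whole-transcript Affymetrix array. How many mice were pooled, and which markers defined a fresh Treg before the sort on CD103 and ICOS, are stated in none of the sources used. The fresh CD103 single-positive (CD103pos ICOSneg) and double-negative (CD103neg ICOSneg) subsets, 2 arrays each, served as the same CD103 comparison without ICOS. The activated double-positive and ICOS single-positive subsets, also 2 arrays each, were the same sorted populations after 3 days in a suppression assay. In that assay 200000 Treg were cultured with 1000000 Ly5.1 congenic naive CD4 T cells, 2000000 irradiated splenocytes from Rag2-/- mice, which lack T and B cells, and 0.5 ug/ml of soluble anti-CD3. The Treg were recovered from it as Ly5.1neg CD4pos CD25pos cells, with no second sort on CD103 or ICOS stated. The labels call the 2 arrays of each group biological replicates from 2 independent experiments.

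CD103 is the alpha E chain of the integrin that binds E-cadherin on epithelial cells, and it marks T cells that settle in or near epithelium. ICOS binds a ligand on antigen-presenting cells and is raised on Treg that have recently met antigen; ICOS-positive Treg in lymph nodes therefore include effector Treg bound for tissues, follicular Treg that enter B cell follicles, and cells in cycle. All values below are log2 intensities on the scale the authors deposited, on which 1 unit is a doubling of signal, and they are set against each other only within a gene. A gene is called where limma's test over all 16 arrays gave a Benjamini-Hochberg adjusted p under 0.05 over 19938 genes. Since each array holds RNA of a whole sorted population, fewer cells that express a gene and less RNA per expressing cell cannot be told apart in any result.

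The sort markers were checked first. Itgae, which encodes CD103, measured 12.33 and 12.37 in the double-positive arrays and 9.19 and 8.72 in the ICOS single-positive arrays, 10.5-fold apart with no overlap. It did not pass the test over all 16 arrays (adjusted p = 0.141), where the spread of the activated arrays enters the error, and did with the 8 fresh arrays fitted alone (adjusted p = 0.00223). Icos measured 13.16 and 13.31 against 12.61 and 12.65, and stood higher in both subsets than in the ICOS-negative arrays, which lay between 10.40 and 11.47. Foxp3, the transcription factor that defines Treg, measured 12.84 and 12.50 against 12.34 and 11.99. Il2ra, the IL-2 receptor alpha chain CD25, was at 12.60 and 12.62 against 12.24 and 12.18. Cd4 (12.10 and 11.95 against 12.11 and 11.95) and Cd3e (12.82 and 12.41 against 12.61 and 12.43) overlapped between the subsets. Of 6 Treg identity genes, 4 stood above in both double-positive arrays (19.8% of all genes did) with none called. The summed linear intensity of the 6 was 25443 and 24981 against 18733 and 17595. One array stands apart from its partner: activated ICOS single-positive replicate 2 differed over 2-fold in 685 genes, and its Foxp3 was 8.53 beside 12.64. That array is not among the 4 compared, but it enters the error of every gene in the 16-array fit. The fit without it is given below for part of the genes named. Some genes that passed with the 8 fresh arrays alone did not pass in that fit.

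In fresh ICOS-positive cells, 67 of 19938 genes (0.336%) differed between the CD103-positive and the CD103-negative subset. Of these, 34 (0.171% of genes tested) were higher in double-positive cells and 33 (0.166%) were lower, and 26 and 22 of them respectively differed over 2-fold. The arrays of the 2 subsets did not overlap for any of the 67, so leaving out 1 of those arrays could not turn a direction. Over all genes 19.8% had both double-positive arrays above, 17.9% had both below and 52% had a positive difference. The called genes that rose most were Abi3bp, of the extracellular matrix, Ptgdr2, a prostaglandin D2 receptor, and Blk, a kinase. The called genes that fell most were Il12rb2, a cytokine receptor chain, Tnfsf8, a ligand of the TNF family, and Slc16a5, a transporter. When the deposited values were quantile-normalized once more, 133 genes passed, of which 33.8% were higher in place of 50.7%. With the 8 fresh arrays fitted alone, 308 genes passed (1.54%; 142 higher, 0.712%, and 166 lower, 0.833%), among them 64 of the 67. Without activated ICOS single-positive replicate 2, 129 passed, and all 67 were among them. Each of the 4 arrays compared weighs more: 17 genes passed without double-positive replicate 1, 17 without double-positive replicate 2, 13 without ICOS single-positive replicate 1 and 8 without ICOS single-positive replicate 2. Abi3bp, Ptgdr2, Blk, Sdc1, Nox1, Slc27a6 and Mif passed in all 4 of those fits, and 43 of the 67 in none, although each of the 67 kept its direction in every fit that held it.

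**Figure D1:**
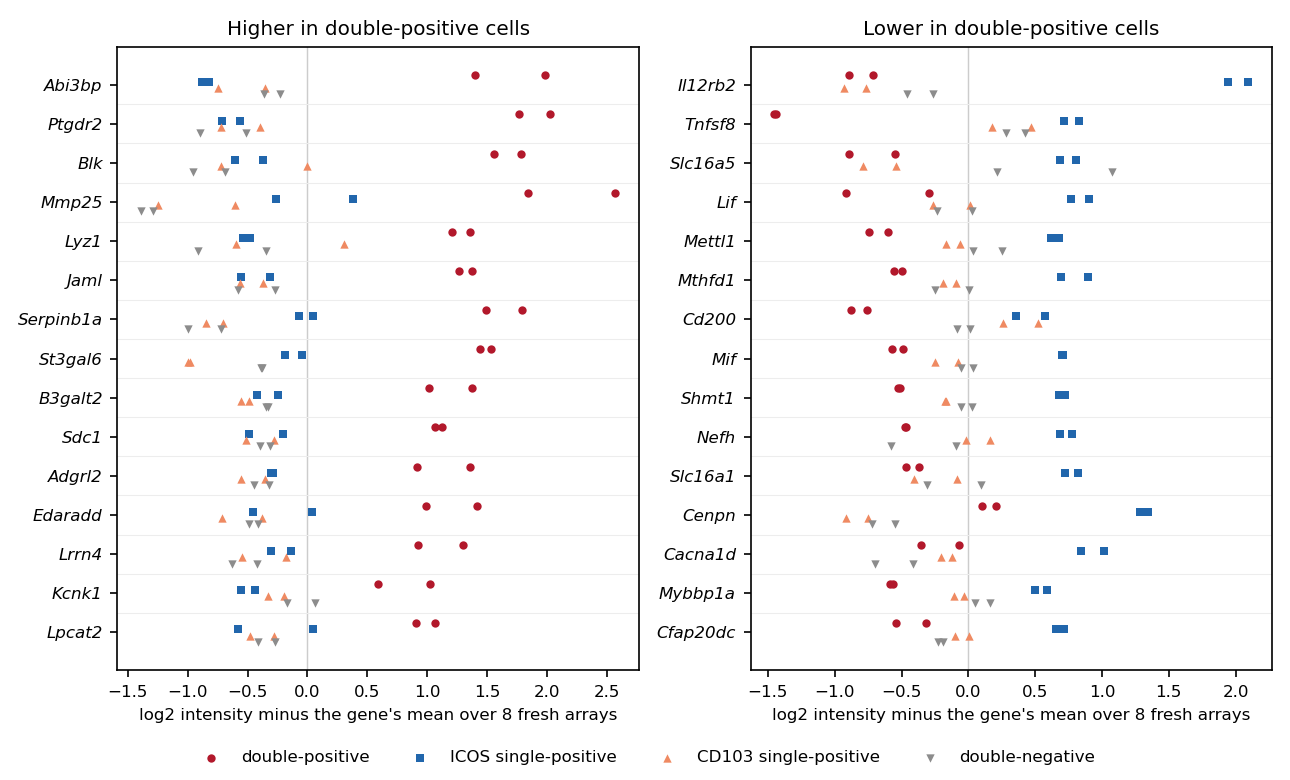
Log2 intensity in each of the 8 fresh arrays, less the gene's own mean over those arrays (horizontal axis), for the 15 called genes with the largest rise and the 15 with the largest fall in double-positive cells; each symbol is 1 array and no error bar is drawn. Both red points lie right of both blue points for each gene on the left and left of them for each gene on the right, as for Abi3bp (7.60 and 7.02 against 4.73 and 4.80) and Il12rb2 (5.28 and 5.46 against 8.12 and 8.27).

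Among called receptor genes, the largest rise was that of Ptgdr2. This gene encodes CRTH2, the receptor through which prostaglandin D2 attracts T helper 2 cells, eosinophils and innate lymphoid cells. It measured 8.87 and 8.62 in double-positive cells and 6.29 and 6.13 in ICOS single-positive cells, 5.79-fold higher (adjusted p = 0.00152). The 4 ICOS-negative arrays lay between 5.95 and 6.45, so that the double-positive subset stood alone. Hpgds, the hematopoietic prostaglandin D2 synthase that makes the ligand, was at 7.10 and 7.17 against 6.15 and 6.17, 1.97-fold higher (adjusted p = 0.0132). Of 23 measured genes of the prostaglandin pathway these were the only 2 called; the median difference of the list was 0.04 beside 0.01 over all genes, and -0.00295 after a second quantile normalization. The prostaglandin E2 receptors did not pass: Ptger4 measured 11.50 and 11.23 against 10.89 and 10.71, and Ptger2 7.14 and 7.04 against 7.76 and 7.72.

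The chemokine receptor Ccr10, which guides T cells to skin and mucosa, was at 7.49 and 8.17 against 6.67 and 6.60, 2.29-fold higher (adjusted p = 0.0456). Ccr10 and Ptgdr2 were 2 of 25 homing and chemokine receptor genes measured; no other passed, 20 of the 25 had a positive difference and the median was 0.46. The receptor of eosinophil-attracting chemokines, Ccr3, measured 8.64 and 9.20 against 6.82 and 7.14 (adjusted p = 0.278, and 0.0152 with the fresh arrays alone). Ccr2 was at 10.31 and 11.08 against 9.14 and 9.22, and Cxcr6 at 10.64 and 11.13 against 9.35 and 9.67. These 2 receptors of inflamed tissue did not overlap between subsets. They did not pass over 16 arrays and passed with the fresh arrays alone (adjusted p = 0.0315 and 0.034). Ccr3, Ccr2 and Cxcr6 did not pass without activated ICOS single-positive replicate 2. Receptors that serve lymphoid organs lay the other way. Cxcr5, which belongs to the list and leads cells into B cell follicles, measured 7.80 and 7.55 against 9.17 and 9.002 (adjusted p = 0.0566; 0.0486 with the fresh arrays alone and 0.0306 without activated ICOS single-positive replicate 2), and Ccr7, which leads them to the T cell zone and stands in the naive and central T cell list, 10.55 and 9.92 against 11.87 and 11.75 (adjusted p = 0.157, and 0.0279 with the fresh arrays alone).

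Abi3bp, a secreted protein of the extracellular matrix, measured 7.60 and 7.02 against 4.73 and 4.80, 5.84-fold higher (adjusted p = 0.00126), the smallest p of all genes. Sdc1, the heparan sulfate proteoglycan syndecan-1 best known on plasma cells and epithelium, was at 7.93 and 7.88 against 6.61 and 6.32, 2.71-fold higher (adjusted p = 0.00152). The next heparan sulfate proteoglycan, Sdc4, was at 9.83 and 9.40 against 8.56 and 8.03 without passing (adjusted p = 0.569). Abi3bp and Sdc1 were 2 of 18 measured genes of a list of matrix and secreted proteins, of which 14 had positive differences (median 0.18).

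Mmp25, a membrane-anchored matrix metalloproteinase, measured 9.60 and 8.87 against 7.41 and 6.76, 4.44-fold higher (adjusted p = 0.0329). Jaml, a junctional adhesion molecule through which T cells bind epithelial cells, was at 7.93 and 8.04 against 6.10 and 6.35, 3.38-fold higher (adjusted p = 0.00343). St3gal6, a sialyltransferase that helps build selectin ligands, rose 3.04-fold, from 7.71 and 7.85 to 9.34 and 9.44 (adjusted p = 0.0329), and B3galt2, a galactosyltransferase, 2.89-fold, from 5.62 and 5.45 to 6.89 and 7.24 (adjusted p = 0.0183). The adhesion G protein-coupled receptor Adgrl2 was 2.70-fold higher, with 6.65 and 7.09 against 5.45 and 5.43 (adjusted p = 0.0122). Lrrn4 and Edaradd, an adaptor of the ectodysplasin receptor, were 2.52-fold and 2.66-fold higher. The integrin list that holds Itgae had no called gene among 18; Itga2, the collagen receptor chain, measured 9.42 and 9.81 against 8.41 and 8.45, and Itgb8, part of an integrin that activates TGF-beta, 10.42 and 10.55 against 9.38 and 9.55. Both passed without activated ICOS single-positive replicate 2 (adjusted p = 0.0276 and 0.0178).

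Several called genes are better known in other cells. Blk, a Src family kinase of B cells that some gamma delta and IL-17-producing T cells also use, measured 8.66 and 8.43 against 6.27 and 6.50, 4.46-fold higher (adjusted p = 0.00199). Among 9 measured B cell markers, Blk alone was called, and 2 passed and were higher with the fresh arrays alone. Positive differences were found in 8, and 5 had both double-positive arrays above (19.8% of all genes did). Cd79b measured 9.72 and 9.67 against 9.01 and 8.65 (adjusted p = 0.886, and 0.0403 with the fresh arrays alone). The other markers include 6 (Cd79a, Ms4a1, Pax5, Ebf1, Fcrla and Cr2) that were below the median gene on all 4 arrays. The summed linear intensity of the B cell list, Blk included, was 1759 and 1559 in double-positive arrays against 1031 and 836. The 4 gamma delta T cell markers measured, of which Blk is also 1, summed to 1170 and 977 against 536 and 494. The part of other cells in the Blk result was not tested.

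Lyz1, a lysozyme of myeloid and Paneth cells, measured 8.11 and 8.26 against 6.41 and 6.36, 3.48-fold higher (adjusted p = 0.0196). Its near-identical neighbour Lyz2 was at 9.74 and 9.53 against 8.57 and 7.37 and did not pass (adjusted p = 0.596), and probes cannot be assumed to keep the 2 genes apart. Lyz1 was the only called gene among 18 myeloid and dendritic cell markers, 10 of which (among them Csf1r, Itgam, Itgax and Adgre1) lay below the median gene on all 4 arrays. The list summed to 4383 and 4642 against 3287 and 3158, and the part of myeloid cells in the Lyz1 result was not tested. No erythroid or platelet, epithelial or stromal, CD8 T or NK cell marker was called. With the fresh arrays alone, 2 of 10 CD8 T and NK cell markers passed and were higher. In that fit 1 of 10 epithelial and stromal markers passed and was lower. Both double-positive arrays were above in 4 of the CD8 T and NK cell markers and below in 5 (19.8% and 17.9% of all genes). The part of such cells in the results was not tested.

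Nox1, a catalytic subunit of the superoxide-producing NADPH oxidases of epithelium, was at 7.61 and 7.82 against 6.50 and 6.60, 2.24-fold higher (adjusted p = 0.00199). It was the only called gene of 10 measured in that complex; Cybb, the phagocyte subunit, measured 9.20 and 9.36 against 9.71 and 9.72 and did not pass. Serpinb1a, an inhibitor of neutrophil proteases, rose 3.15-fold (7.66 and 7.96 against 6.09 and 6.21; adjusted p = 0.00947). Kcnk1, a potassium channel, rose 2.47-fold, from 6.14 and 6.01 to 7.60 and 7.16 (adjusted p = 0.00453), and Slc27a6, a fatty acid transporter, 2.22-fold, from 4.86 and 4.82 to 5.85 and 6.14 (adjusted p = 0.00152). Lpcat2, which makes platelet-activating factor and its phospholipid precursors, was 2.38-fold higher. Cd101, an inhibitory surface receptor on Treg and resident T cells, was at 9.66 and 9.47 against 8.47 and 8.52, 2.10-fold higher (adjusted p = 0.0307), and was the only called gene of 19 costimulatory and coinhibitory genes.

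Many genes that rose are dim in their mean over the 16 arrays, most of which are not double-positive ones. Of the 34, 20 lay under the median probe set level of 6.42 in their mean over the 16 arrays, Abi3bp, Lyz1, Jaml, Nox1, Slc27a6 and Hpgds among them, against 6 of the 33 that fell. Of those named, only Slc27a6 (5.85 and 6.14) was below the median gene in the fresh double-positive arrays (6.64 and 6.54). The scan gives no detection call in the values used here, so the lower of 2 dim levels may be background and a fold of such a gene is then too small. With dim genes left out before the fit, 29 genes passed, 28 of them among the 41 of the 67 that were still tested.

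On the side of ICOS single-positive cells, the largest called difference was in Il12rb2, the IL-12 receptor chain of T helper 1 cells. It measured 5.28 and 5.46 in double-positive and 8.12 and 8.27 in ICOS single-positive arrays, 7.08-fold lower, with an adjusted p of 0.0491 that lies at the threshold. Double-positive cells were here at the level of the ICOS-negative subsets, whose 4 arrays lay between 5.25 and 5.91. Il12rb2 was the only called gene in the list of 15 helper lineage genes and in that of 22 cytokine receptors. The T helper 1 regulator Tbx21 measured 8.40 and 8.19 against 9.40 and 9.22. Il23r, the IL-23 receptor of IL-17-producing cells, lay the other way at 10.39 and 10.26 against 8.72 and 8.55. Neither passed (adjusted p = 0.762 and 0.508). Il23r did with the fresh arrays alone (0.0489) but not without activated ICOS single-positive replicate 2. Il18r1, the IL-18 receptor, was at 10.73 and 10.89 against 9.76 and 9.65, and Il10ra, the IL-10 receptor, at 10.66 and 10.61 against 9.84 and 9.67, with adjusted p = 0.589 and 0.108 over 16 arrays and 0.0116 and 0.0152 with the fresh arrays alone; without activated ICOS single-positive replicate 2 the values were 0.0217 and 0.0965.

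Tnfsf8, the ligand of CD30, measured 7.08 and 7.07 against 9.23 and 9.35, 4.65-fold lower (adjusted p = 0.0258). In this gene both ICOS-negative subsets (8.70 to 8.99) lay near ICOS single-positive cells, so that the double-positive subset alone was low. Cd200, the ligand of an inhibitory receptor and abundant on follicular helper T cells, was also lowest there: 8.05 and 8.17 in double-positive cells, 9.28 and 9.50 in ICOS single-positive cells and 8.84 to 9.45 in the ICOS-negative subsets (2.43-fold lower; adjusted p = 0.0281). Lif, the leukemia inhibitory factor cytokine, was at 6.28 and 5.66 against 7.47 and 7.34, 2.71-fold lower (adjusted p = 0.0281). Mif, a cytokine with tautomerase activity, was at 10.70 and 10.62 against 11.89 and 11.89, 2.35-fold lower (adjusted p = 0.00199).

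Cd200 was the only called gene of 18 measured follicular T cell genes, 15 of which had negative differences (median -0.43). The largest differences in that list belong to genes that did not pass over 16 arrays. Il21, the cytokine with which follicular helper T cells drive germinal centres, measured 4.86 and 5.13 against 8.94 and 9.27 (adjusted p = 0.0826), Pou2af1 7.27 and 6.66 against 9.14 and 8.90 (adjusted p = 0.107), and Bcl6, the master regulator of follicular T cells, 8.16 and 8.12 against 9.37 and 9.43 (adjusted p = 0.508). In the fit of the fresh arrays alone, 5 of the 18 passed and were lower, Il21 (adjusted p = 0.000227), Bcl6 (0.00467), Pou2af1 (0.0267) and Cxcr5 (0.0486) among them. In the fit without activated ICOS single-positive replicate 2, Pou2af1 and Cxcr5 passed, and Il21 and Bcl6 did not.

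Beside these stand the 9 markers of activated conventional CD4 T cells, of which none was called, 8 had negative differences and 6 had both double-positive arrays below (17.9% of all genes did). Their median difference was -0.40 and their summed linear intensity 1913 and 1608 in double-positive arrays against 3270 and 3216. Il2, which Treg themselves hardly make, measured 6.10 and 6.01 against 8.35 and 8.67 (adjusted p = 0.0917), Ifng 6.95 and 7.06 against 8.37 and 8.42, and Cd40lg 8.17 and 8.26 against 8.90 and 8.99. With the fresh arrays alone 4 of the 9 passed and were lower, Il2 with an adjusted p of 0.000731. Il2, Ifng and Cd40lg did not pass without activated ICOS single-positive replicate 2. Il3, Csf2, Il4 and Il17a were below the median gene on all 4 arrays. The part of conventional CD4 T cells in the follicular and helper results was not tested.

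The naive and central T cell list, 16 genes of cells that recirculate through lymph nodes, had no called gene, 13 negative differences and a median of -0.55. Igfbp4 measured 6.27 and 6.25 against 9.31 and 9.36, Dapl1 6.18 and 6.75 against 8.89 and 9.49, and Bach2, a repressor of effector differentiation, 8.39 and 7.86 against 9.83 and 9.91. Il7r, the IL-7 receptor, lay the other way at 12.48 and 12.64 against 11.32 and 11.24. None of these 4 overlapped between the subsets, and all 4 passed with the fresh arrays alone (adjusted p = 0.000227, 0.0115, 0.0223 and 0.0279). When activated ICOS single-positive replicate 2 was left out, Igfbp4 passed, and Dapl1, Bach2 and Il7r did not. Both double-positive arrays were below all 4 ICOS-negative arrays in 12 of the 16 genes, beside 15% of all genes (2997 of 19938), and both ICOS single-positive arrays in 10, beside 17.0% of all genes.

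The effector Treg list, 27 measured genes of antigen-experienced Treg, had no called gene, 22 positive differences and a median of 0.48. Klrg1, a receptor of terminally differentiated Treg, measured 11.83 and 12.03 against 10.29 and 9.997, and Gzmb, granzyme B, 11.29 and 11.48 against 9.03 and 9.21. Havcr2, which encodes TIM-3, was at 10.21 and 9.97 against 8.41 and 7.95, Fgl2, a secreted suppressive molecule, at 10.07 and 10.84 against 8.39 and 8.90, and Prdm1, the effector regulator Blimp-1, at 10.70 and 10.89 against 9.83 and 9.77. Adjusted p-values over 16 arrays ran from 0.194 for Fgl2 to 0.963 for Prdm1. With the fresh arrays alone 6 of the 27 passed, all higher, among them Klrg1 (adjusted p = 0.0115), Prdm1 (0.0115), Havcr2 (0.0177) and Fgl2 (0.0388) but not Gzmb (0.482). Without activated ICOS single-positive replicate 2, Klrg1 passed, and Prdm1, Havcr2, Fgl2 and Gzmb did not. Both ICOS-positive subsets stood above the ICOS-negative ones in this list: both double-positive arrays were above all 4 ICOS-negative arrays in 26 of 27 genes, beside 9.99% of all genes, and both ICOS single-positive arrays in 24, beside 11.4%. The Treg core list (22 genes, median 0.40, 17 positive) and the list of S100 proteins, annexins and galectins (20 genes, median 0.29, 18 positive) had no called gene either; S100a4 measured 10.14 and 10.33 against 9.42 and 9.12 and Anxa1 6.02 and 6.33 against 5.50 and 5.16 (adjusted p = 0.78 and 0.082). Ctla4, the inhibitory receptor through which Treg take CD80 and CD86 from antigen-presenting cells, was at 12.55 and 12.68 against 12.02 and 12.00, and Entpd1, the ectonucleotidase CD39, at 10.40 and 10.49 against 9.46 and 9.28 (adjusted p = 0.676 and 0.728). Il10, a suppressive cytokine, came close to overlap, with 9.82 and 9.12 against 9.03 and 8.46 (adjusted p = 0.993).

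**Figure D2:**
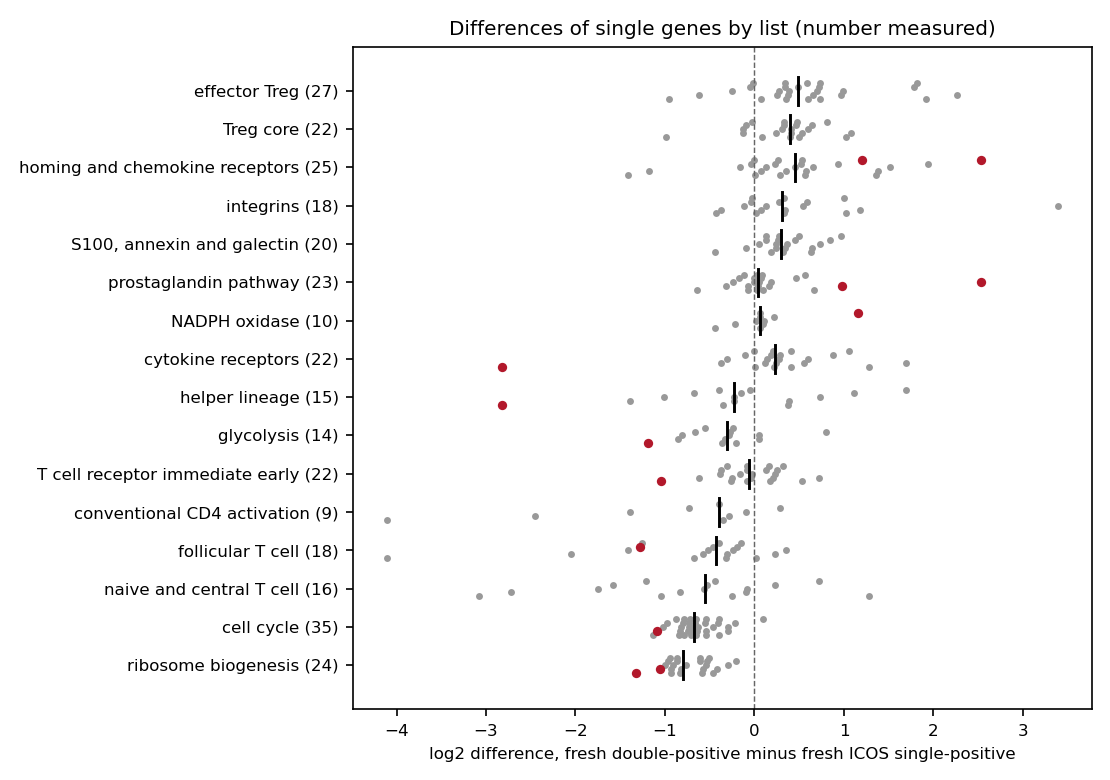
Log2 difference of each measured gene, fresh double-positive minus fresh ICOS single-positive (horizontal axis), in 16 lists with the number of genes measured in brackets; each point is 1 gene (mean of 2 arrays less mean of 2 arrays), red where called, and the black bar is the list's median. All 24 ribosome biogenesis genes and 34 of 35 cell cycle genes lie left of zero (medians -0.79 and -0.68), while the effector Treg median lies at 0.48.

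Among the pathway lists, ribosome biogenesis and cell cycle had the largest share of genes with 1 sign. Myc, the transcription factor that drives growth and, among its targets, the making of ribosomes, measured 9.97 and 9.76 against 10.96 and 10.85, 2.06-fold lower (adjusted p = 0.0406). Ribosomes are assembled in the nucleolus from RNA that polymerase I transcribes and from proteins that modify, cut and fold it. The ribosome biogenesis list held 24 measured genes, with an enzyme of transfer RNA among them. Of these, 2 were called lower, all 24 had negative differences, 22 had both double-positive arrays below (17.9% of all genes did) and the median was -0.79. The called members were Mettl1, a methyltransferase that modifies transfer RNA, at 6.93 and 7.07 against 8.35 and 8.29 (2.50-fold lower; adjusted p = 0.0169), and Rrp12, a factor that exports ribosomal subunits, at 7.69 and 7.39 against 8.63 and 8.57 (2.08-fold lower; adjusted p = 0.0169). Nop16 measured 9.33 and 9.66 against 10.44 and 10.54 (adjusted p = 0.067), and Polr1b, a polymerase I subunit, 8.96 and 8.88 against 9.92 and 9.85 (adjusted p = 0.369). Wdr12 and Dkc1 were also without overlap, at 7.85 and 8.06 against 8.75 and 9.06 and at 8.00 and 8.56 against 9.06 and 9.37. Outside the list, the nucleolar protein Mybbp1a was called 2.17-fold lower (9.45 and 9.42 against 10.51 and 10.60; adjusted p = 0.0389). Nhp2, a partner of Dkc1, and Pprc1 were also called, 2.07-fold and 1.71-fold lower; these 2 were named after their values were seen.

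The cell cycle list held 35 measured genes of replication and mitosis, with 1 called, 34 negative differences and a median of -0.68. The called member was Mcm2, a subunit of the replicative helicase, at 9.27 and 9.50 against 10.41 and 10.54 (2.12-fold lower; adjusted p = 0.0329). Its partner Mcm5 measured 10.02 and 9.61 against 10.88 and 10.81, and E2f1, the transcription factor of the entry into S phase, 7.73 and 7.75 against 8.93 and 8.80; neither passed over 16 arrays (adjusted p = 0.173 and 0.134), and E2f1 did with the fresh arrays alone (0.0262). E2f1 did not pass without activated ICOS single-positive replicate 2. Cdc6, Mcm3 and Bub1 had differences of -0.98, -0.87 and -0.84 with no overlap and no call. Mki67, named after its values were seen, was at 10.28 and 10.51 against 10.73 and 10.85 (adjusted p = 0.715), a smaller difference than those of the replication genes. Outside the list Cenpn, a centromere protein, was called 2.23-fold lower, with 7.08 and 7.18 against 8.32 and 8.26 (adjusted p = 0.0329). Also called, and named after their values were seen, were Cks1b, Cdca8, Chaf1a, Brca2, Ranbp1 and Ncapd2, genes of kinase control, chromosome segregation, chromatin assembly, DNA repair, nuclear transport and condensation, between 1.60-fold (Ncapd2) and 2.10-fold (Cks1b) lower.

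The 2 lists differed in where the ICOS-negative subsets lay. In the cell cycle list, both double-positive arrays were above all 4 ICOS-negative arrays in 34 of 35 genes and both ICOS single-positive arrays in 35, beside 9.99% and 11.4% of all genes. Mcm2 lay between 9.05 and 9.19 in ICOS-negative arrays and Cenpn between 6.06 and 6.43, so double-positive cells were intermediate. In the ribosome list, both double-positive arrays were below all 4 ICOS-negative arrays in 14 of 24 genes and above them in 0, while both ICOS single-positive arrays were above in 14 and below in 0; over all genes the shares below and above were 15% and 9.99% for double-positive and 17.0% and 11.4% for ICOS single-positive arrays. Mettl1 ran from 7.50 to 7.92 and Mybbp1a from 9.91 to 10.17 in ICOS-negative arrays, between the 2 ICOS-positive subsets. Myc was between 11.07 and 11.26 there, above ICOS single-positive cells too.

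The promoters of 4 of the called genes of growth and division are shown. They were picked by hand, each for a motif that its window holds, so that these 4 matches are no result. Each window runs from 250 bases before to 50 bases after the RefSeq gene start (GRCm38.p6), 5′ to 3′ on the gene's strand. In Mettl1 (chr10:127041682-127041981, plus strand) and Mybbp1a (chr11:72441077-72441376, plus strand) the capitals mark the E-box CACGTG, the letters that Myc and related factors can bind. In Mcm2 (chr6:88898731-88899030, minus strand) and Cenpn (chr8:116921490-116921789, plus strand) they mark TTTGAA or its reverse complement, the core of the cell cycle element called CHR.
Mettl1: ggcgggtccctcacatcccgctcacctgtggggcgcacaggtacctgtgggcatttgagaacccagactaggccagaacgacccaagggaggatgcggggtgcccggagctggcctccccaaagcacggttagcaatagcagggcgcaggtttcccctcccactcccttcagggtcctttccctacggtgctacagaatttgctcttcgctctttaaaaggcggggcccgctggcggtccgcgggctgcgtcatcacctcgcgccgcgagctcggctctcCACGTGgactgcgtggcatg
Mybbp1a: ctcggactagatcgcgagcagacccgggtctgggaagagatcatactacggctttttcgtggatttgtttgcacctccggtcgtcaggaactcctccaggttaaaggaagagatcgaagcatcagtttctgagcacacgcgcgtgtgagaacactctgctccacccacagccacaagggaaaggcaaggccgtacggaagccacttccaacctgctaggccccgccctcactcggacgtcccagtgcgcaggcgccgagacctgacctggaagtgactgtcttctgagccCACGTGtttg
Mcm2: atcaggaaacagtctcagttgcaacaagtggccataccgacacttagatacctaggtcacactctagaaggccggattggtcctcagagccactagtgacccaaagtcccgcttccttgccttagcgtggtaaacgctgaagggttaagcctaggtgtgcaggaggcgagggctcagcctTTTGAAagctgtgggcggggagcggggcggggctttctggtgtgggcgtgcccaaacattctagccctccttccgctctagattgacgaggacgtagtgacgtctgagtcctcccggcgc
Cenpn: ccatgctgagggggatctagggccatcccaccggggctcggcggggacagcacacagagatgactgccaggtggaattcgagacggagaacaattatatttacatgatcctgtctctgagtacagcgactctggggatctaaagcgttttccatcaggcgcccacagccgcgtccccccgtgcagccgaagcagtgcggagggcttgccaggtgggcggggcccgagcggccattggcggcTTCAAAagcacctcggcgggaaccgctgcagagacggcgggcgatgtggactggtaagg
The E-box begins 30 bases after the start of Mettl1 and 40 after that of Mybbp1a, and the CHR letters begin 70 bases before the start of Mcm2 and 9 before that of Cenpn. Over the windows of all 27025 genes in the table, searched on both strands, CACGTG was found in 8.09%, CCAAT, the box of many replication and mitosis promoters, in 41.1% and TTTGAA in 20.2%; matches of different motifs may overlap. A window was matched for 29 of the 33 genes that fell, of which 5 (17.2%) held CACGTG, 16 (55.2%) CCAAT and 6 (20.7%) TTTGAA. For 26 of the 34 that rose the shares were 7.69%, 46.2% and 19.2%. In the ribosome list 5 of 19 windows (26.3%) held CACGTG, 6 (31.6%) CCAAT and 2 (10.5%) TTTGAA. In the cell cycle list 1 of 31 (3.23%) held CACGTG, 23 (74.2%) CCAAT and 16 (51.6%) TTTGAA. These are matches of letters, with no measurement of binding.

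Mthfd1 and Shmt1, enzymes that pass folate-bound carbon units to nucleotide synthesis, measured 8.67 and 8.73 against 9.92 and 10.12 (2.50-fold lower; adjusted p = 0.00294) and 7.47 and 7.45 against 8.70 and 8.66 (2.33-fold lower; adjusted p = 0.0183). Slc16a1, the lactate and pyruvate transporter MCT1, was at 8.01 and 7.91 against 9.11 and 9.20, 2.28-fold lower (adjusted p = 0.0414), and was the only called gene of 14 in the glycolysis list, which had 11 negative differences and a median of -0.31. Pgam1 and Tpi1, enzymes of lower and middle glycolysis, had differences of -0.86 and -0.81 and Hk2, the hexokinase of the first step, -0.67, with no call. The glucose transporter Slc2a3 lay the other way at 10.54 and 10.51 against 9.80 and 9.64 (adjusted p = 0.709). Slc16a5, a related transporter, measured 5.59 and 5.24 against 6.82 and 6.94, 2.76-fold lower (adjusted p = 0.0351), and was as low in CD103 single-positive cells (5.59 and 5.34) but not in double-negative cells (7.21 and 6.35). Cacna1d, a calcium channel, Nefh, a neurofilament chain, and Cfap20dc were 2.21-fold, 2.30-fold and 2.17-fold lower.

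Of 22 measured immediate early genes of the T cell receptor Myc alone was called, and the list's median was -0.06. None was called among 13 genes that restrain MAP kinase signalling (median -0.26), 17 of cholesterol synthesis (-0.16) and 19 interferon-stimulated genes (0.23). The same held for 17 genes of suppression and cytolysis (0.26), 12 killer lectin-like receptors (0.03), 7 IL-1 family receptors (0.04), 15 genes of survival and death (0.15) and 21 of the TGF-beta pathway (0.08). Within the TGF-beta pathway, Tgfbr3, the accessory receptor betaglycan, measured 7.80 and 7.36 against 9.15 and 9.18, and Tgfbr1, the signalling receptor, 11.09 and 11.37 against 10.25 and 10.42; both passed with the fresh arrays alone (adjusted p = 0.0115 and 0.0494). Smad7, the inhibitor that TGF-beta signalling induces, was at 9.57 and 9.38 against 9.01 and 8.93 and did not pass in either fit. Neither these receptors nor Smad7 passed without activated ICOS single-positive replicate 2.

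The same CD103 comparison in ICOS-negative cells gave a different set of values. There, 17 genes (0.0853%) were called between CD103 single-positive and double-negative cells. Of the 34 genes higher in double-positive cells, 18 had a positive difference in ICOS-negative cells (47.0% of all genes did), with a median of 0.01 against 1.19, and 2 were called there. These were Hpgds, at 7.54 and 7.79 in CD103 single-positive against 6.50 and 6.25 in double-negative cells (adjusted p = 0.00402), and Cd101, at 10.23 and 10.32 against 9.09 and 8.63 (adjusted p = 0.0112). Both were highest in CD103 single-positive cells. For 31 of the 34, Abi3bp, Ptgdr2, Blk, Mmp25, Lyz1 and Jaml among them, both double-positive arrays were above all 6 other fresh arrays, which held for 5.37% of all genes. Of the 33 lower genes, 20 had a negative difference in ICOS-negative cells, none was called there, and in 28 both ICOS single-positive arrays were above all 6 others (6.21% of all genes). In both counts the choice of the genes had already set the 2 ICOS-positive subsets apart. The shares over all genes, which were not so chosen, are therefore not like ones. In their group means, 21 of the 33 were lowest in double-positive cells.

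Whether a CD103 difference depended on ICOS was tested directly, and 9 genes passed (0.0451%). Among them were 6 of the 67 genes, a test that contains the difference by which they were chosen. The difference in ICOS-positive cells exceeded that in ICOS-negative cells by 2.80 in Abi3bp (adjusted p = 0.012), 2.39 in Ptgdr2 (0.0328), 1.52 in Kcnk1 (0.0328), 1.48 in Sdc1 (0.0229) and 1.19 in Slc27a6 (0.0189). In Cacna1d the ICOS-positive difference less the ICOS-negative one was -1.54 (adjusted p = 0.0328). The other 3 were not called in ICOS-positive cells and were called in ICOS-negative ones. Cybb measured 10.84 and 11.001 in CD103 single-positive and 8.48 and 8.11 in double-negative cells, Noxa1, an activator of Nox1, 7.70 and 7.93 against 6.20 and 6.11, and Cd8a 7.78 and 8.05 against 6.27 and 6.14. Between the ICOS-positive subsets their differences were -0.44, 0.06 and 0.29, with no overlap of the arrays in Cybb and Cd8a. This count rests on few arrays: 0 genes passed without ICOS single-positive replicate 1 or 2, double-negative replicate 2 or CD103 single-positive replicate 2, 2 without double-positive replicate 1, 7 or 8 in the other 3 fits that leave out a fresh array, 30 without activated ICOS single-positive replicate 2, and 62 with the fresh arrays alone.

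**Figure D3:**
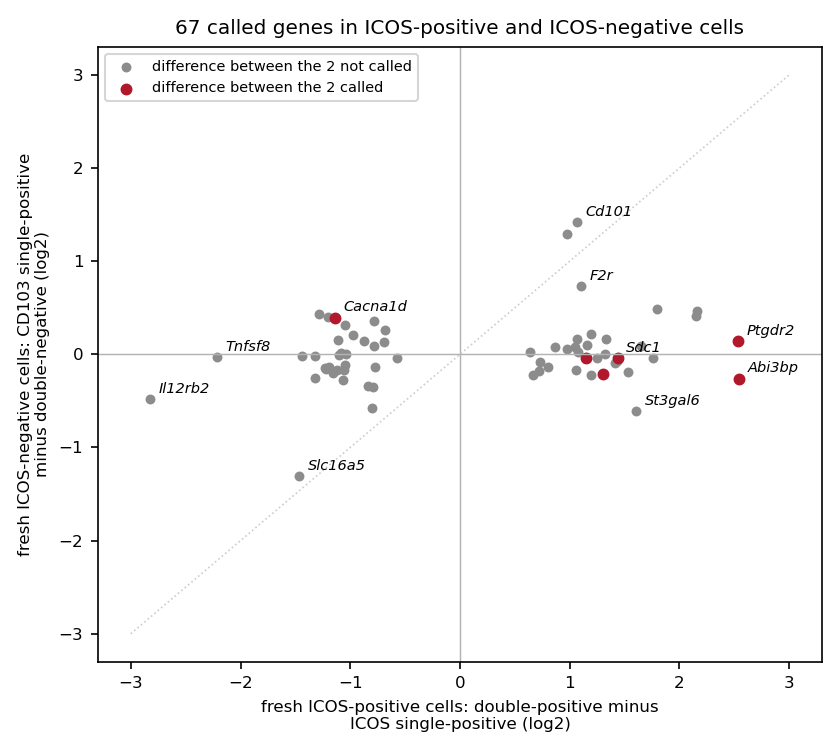
The 67 called genes, with their log2 difference in fresh ICOS-positive cells (horizontal axis) and the CD103 difference in fresh ICOS-negative cells (vertical axis); each point is 1 gene, red where the difference between the 2 passed the test, and the dotted line marks equal values. Most genes lie near the horizontal zero line, Cd101 (1.42 on the vertical axis) and Hpgds (1.29) lie above it, and Slc16a5 lies lowest at -1.31.

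After 3 days in the suppression assay the 2 subsets differed in other genes. In activated cells 124 genes (0.622%) were called between double-positive and ICOS single-positive cells. The total was 17 without activated ICOS single-positive replicate 2, 1008 without its partner and 11 without activated double-positive replicate 2. Of the 34 genes higher in fresh double-positive cells, 22 had a positive difference after activation (57.6% of all genes did) and 2 were called in the same direction. B3galt2 measured 7.34 and 7.04 in activated double-positive against 6.01 and 5.41 in activated ICOS single-positive cells (adjusted p = 0.0193), and Adgrl2 7.47 and 7.56 against 5.93 and 5.37 (adjusted p = 0.00291). Cd101 was called the other way, at 7.03 and 6.96 against 8.03 and 8.36 (adjusted p = 0.0189). Ptgdr2 (6.26 and 6.31 against 6.15 and 6.11) and Abi3bp (5.10 and 5.08 against 4.95 and 4.82) were below their fresh double-positive level on all 4 activated arrays.

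Of the 33 genes lower in fresh double-positive cells, 7 had a negative difference after activation and 26 a positive one, with no call in either direction and a median of 0.28; without activated ICOS single-positive replicate 2 the counts were 8 and 25 and the median 0.23. Lif was at 10.11 and 9.61 in activated double-positive against 8.82 and 8.92 in activated ICOS single-positive cells, Mthfd1 at 9.57 and 9.57 against 8.79 and 9.12, and Mif at 12.37 and 12.09 against 12.06 and 11.94. The list of ribosome biogenesis had a median of 0.26 in activated cells and that of cell cycle 0.08 (-0.01 without activated ICOS single-positive replicate 2). Il12rb2 (10.18 and 11.22 against 11.46 and 12.49) and Tnfsf8 (8.36 and 7.50 against 9.09 and 9.45) kept a negative difference, of -1.27 and -1.34.

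The difference between fresh and activated cells was itself called for 122 genes (0.612%), among them 16 of the 34 and 21 of the 33, again in a test that contains the fresh difference. Among those of the 67 that also passed without activated ICOS single-positive replicate 2, it was largest for Lif, whose fresh less activated difference was -2.42 (adjusted p = 0.0135, and 0.0354 without that array). It was 2.39 for Ptgdr2 (adjusted p = 0.0137 and 0.0377), 2.38 for Jaml (0.00775 and 0.0222), 2.34 for Abi3bp (0.0102 and 0.0253) and 2.27 for Cd101 (0.00537 and 0.0194). The total of 122 became 56 without that array, 599 without its partner, and 3 to 16 without each of the 4 fresh arrays in turn.

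**Figure D4:**
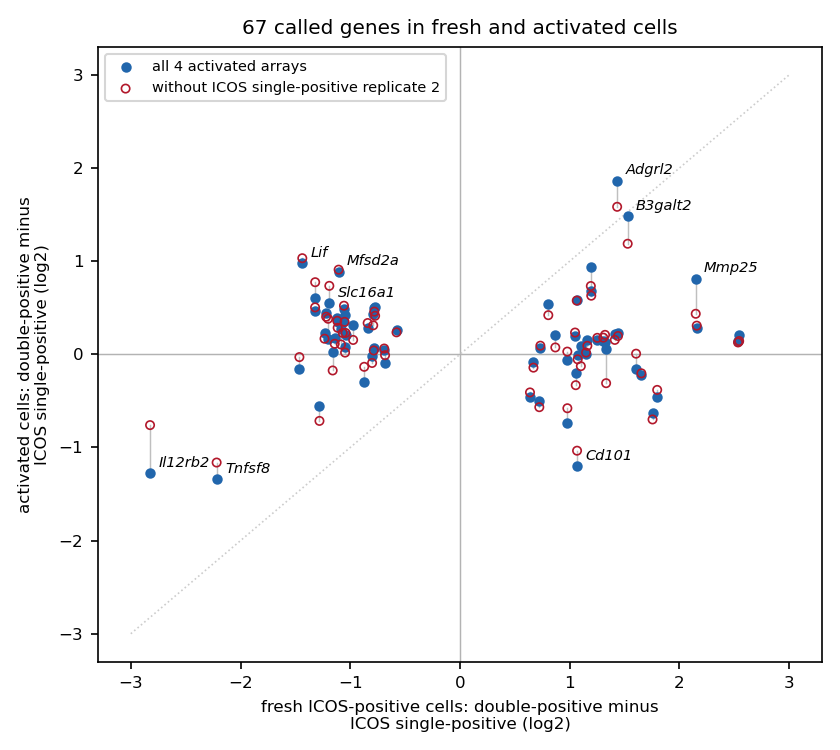
The 67 called genes, with their log2 difference in fresh cells (horizontal axis) and in activated cells (vertical axis), double-positive minus ICOS single-positive; filled points use all 4 activated arrays, open points leave out activated ICOS single-positive replicate 2, and the dotted line marks equal values. Adgrl2 and B3galt2 lie near the line, 26 of 33 genes on the left lie above zero by the filled points, and Cd101 lies lowest on the right at -1.20.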

How the data were processed

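Expression was measured on 16 arrays, 2 for each of 8 groups (4 Treg subsets, fresh and activated), with groups taken from the sample titles. The authors deposited log2 intensities, 1 value per probe set and array. RMA and the affy package are named, per the submitters' processing notes, without versions; RMA corrects background and puts the arrays on 1 distribution, so a change shared by most genes would not be seen. Array medians lay between 6.258 and 6.476. Of 35556 probe sets, 21789 had 1 gene symbol, 1621 several and 12146 none in the platform annotation; only the first were used, with the brightest probe set per gene, which left 19938 genes. These values were used with no further normalization.

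Differences were tested with limma 3.58.1 (R 4.3.3; lmFit and eBayes) on 8 group means over 16 arrays, with 8 residual degrees of freedom, and p-values were Benjamini-Hochberg adjusted over 19938 genes. The 5 comparisons were the CD103 difference in fresh ICOS-positive, fresh ICOS-negative and activated ICOS-positive cells, its dependence on ICOS and its dependence on activation. The fit was tested on simulated data. With 2 arrays per group, the number of arrays limits the precision, and the p-values measure the spread between these arrays.

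The comparison, the 25 pathway lists and the 8 marker lists were chosen with earlier results of these data known. Genes named are up to 15 called genes per direction by size of difference, up to 6 members per list, the sort and identity genes, and genes from up to 8 per direction that passed the tests of dependence. Not all of those chosen for the dependence on activation are named. Predicted genes, small RNAs, olfactory receptors, histones and receptor segments were left out. Alternatives were the fresh arrays alone, the 4 arrays alone, the replicate number as a block, a second quantile normalization, a filter on dim genes (mean under 6.42), the mean of a gene's probe sets, a variance trend and leaving out each array. Promoter windows are those of RefSeq on GRCm38.p6.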

Additional observations from a re-analysis of the deposited data

Results flagged for a closer look

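A CD103 difference that itself differed between ICOS-positive and ICOS-negative fresh cells, by a test of that difference with limma, was found in 9 named genes. The ICOS-positive difference less the ICOS-negative one was 2.80 for Abi3bp, 2.39 for Ptgdr2, 1.52 for Kcnk1, 1.48 for Sdc1 and 1.19 for Slc27a6. It was -1.54 for Cacna1d, -3.06 for Cybb, -1.60 for Noxa1 and -1.42 for Cd8a.

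The same test between fresh and activated ICOS-positive cells passed in 35 named genes, of which 17 also passed without activated ICOS single-positive replicate 2 and all 35 kept their direction without it. The fresh difference less the activated one was positive for genes of several kinds: 2.34 for Abi3bp, 2.39 for Ptgdr2, 1.88 for Blk, 2.26 for Lyz1, 2.38 for Jaml, 1.87 for Serpinb1a, 1.22 for Sdc1, 1.17 for Kcnk1, 1.005 for Nox1, 1.14 for Slc27a6, 2.27 for Cd101 and 1.03 for Hpgds. It was also positive for the translation factor Eif4e3 (1.25), Mturn (1.71) and Pik3r1, a regulatory subunit of phosphoinositide kinase (1.10). Among growth and replication genes it was negative: -1.78 for Mettl1, -1.51 for Mybbp1a, -1.54 for Rrp12, -1.44 for Nop16, -1.48 for Nhp2, -1.28 for Pprc1, -1.22 for Ranbp1, -1.36 for Mcm2, -1.41 for Cks1b, -1.12 for Cdca8 and -1.29 for Chaf1a. Metabolic genes and others followed with -1.93 for Mthfd1, -1.67 for Shmt1, -1.74 for Slc16a1, -2.10 for Hk2, -1.995 for the lipid transporter Mfsd2a, -1.47 for Mif, -2.42 for Lif, -1.32 for Cacna1d and -1.46 for Cfap20dc. These 35 do not hold the largest differences of the 122 genes that passed. Genes outside them, not called in fresh cells, went further: 4.16 for Cd7 (limma adjusted p = 0.0335), 3.73 for Ifi214 (0.0389), 3.40 for Ifi213 (0.000477), -3.24 for Lum (0.0137) and -2.64 for Fabp5 (0.045), among others.

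In some named genes, 5 of them also above (Eif4e3, Cdca8, Cfap20dc, Chaf1a and Hk2), every array of 1 comparison moved one way and every array of the other the opposite way, and the test of the difference between those same comparisons did not pass. In ICOS-negative cells the CD103 difference opposed that of ICOS-positive cells for B3galt2 (-0.18), Eif4e3 (-0.17), St3gal6 (-0.61) and Smad7 (-0.25). It did so with a positive sign for Bcl6 (0.18), Brca2 (0.14), Cd200 (0.43), Cdca8 (0.32), Cfap20dc (0.16), Chaf1a (0.21), Cxcr5 (1.05), Dusp6 (0.59), Hk2 (0.18), Ifng (0.11), Ncapd2 (0.26), Nefh (0.41), Ptger2 (0.86) and Tbx21 (0.61). In activated cells the difference opposed the fresh one for Cdc6 (0.41), Mcm3 (0.49), Mcm5 (0.36), Pgam1 (0.56) and Lyz2 (-1.24).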

How the results depend on the processing

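All 67 genes kept their direction under each alternative in which they were tested. For most of these it could not have been otherwise, since they use the same group means or leave out 1 of arrays that do not overlap. Replicate numbers are shared between groups, but the labels do not say that a number marks an experiment. The deviations of fresh double-positive and ICOS single-positive arrays from their group means correlated at 0.71 over genes. Over the pairs of fresh groups the correlation ran from 0.499 to 0.752, and over all 28 pairs of groups from -0.0158 to 0.752. The main fit takes no account of a spread shared by replicate number. With the replicate block the calls were 279 in fresh ICOS-positive cells (88 higher and 191 lower, all 67 among them), 51 in fresh ICOS-negative cells, 71 for the dependence on ICOS, 576 in activated cells and 716 for the dependence on activation. With the fresh arrays alone the first 3 were 308, 72 and 62. A second quantile normalization gave 133 in fresh ICOS-positive cells and 277 for the dependence on activation. With dim genes left out, fewer genes being tested, the counts were 29, 4, 1 and 211 for the first 4. The dependence on ICOS had 17 calls with the mean of probe sets and 28 with a variance trend. Without activated ICOS single-positive replicate 2 the 5 counts were 129, 74, 30, 17 and 56. Leaving out each array in turn gave ranges of 8 to 129, 5 to 74, 0 to 30, 11 to 1008 and 3 to 599, where the lone array of a group is assumed to vary like the others; where 0 passed for the dependence on ICOS, 749 to 1121 genes had an unadjusted p under 0.05. For each comparison, the arrays left out in turn were only those of its own groups and activated ICOS single-positive replicate 2. Of genes that were not called, the difference of Cd4 turned to 0.0149 after quantile normalization and ran from -0.0859 to 0.0796 over the fits without 1 array, that of Cd3e from -0.112 to 0.301, that of Noxa1 from -0.0499 to 0.176 and that of Nrp1 from -0.255 to 0.191. The cause of these changes was not tested.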

Other observations

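Further called genes, named after their values were seen, were higher in double-positive cells. F2r, the thrombin receptor PAR1, measured 10.25 and 10.57 against 9.38 and 9.24 (2.15-fold higher; limma adjusted p = 0.0456), and stood at 9.22 and 9.62 in CD103 single-positive against 8.72 and 8.65 in double-negative cells. Nedd4, a ubiquitin ligase that limits several receptors, was at 8.10 and 8.11 against 7.04 and 6.78 (2.29-fold higher; adjusted p = 0.0493), and Tph1, the first enzyme of serotonin synthesis, at 6.37 and 6.89 against 5.59 and 5.58 (2.07-fold higher; adjusted p = 0.0196). Eif4e3, a cap-binding protein, was 2.08-fold higher (10.05 and 10.04 against 9.06 and 8.92). Pik3r1 was 1.56-fold higher, with 11.19 and 11.22 against 10.50 and 10.64; both ICOS-negative subsets, at 11.13 to 11.30, lay at the double-positive level, so that ICOS single-positive cells alone were low.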
